A study of Mus musculus with 16 samples.

Results

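Dexamethasone (DEX) is a synthetic glucocorticoid. It binds the glucocorticoid receptor, which then changes the transcription of many genes, and it dampens mast cell activation. PEP, the protein tyrosine phosphatase encoded by Ptpn22, removes phosphate groups from Src-family and related kinases and so tunes signalling downstream of immune receptors. In mast cells, the high-affinity IgE receptor is loaded with IgE, and antigen that cross-links the bound IgE starts the signalling that leads to degranulation and cytokine transcription. Here the genotype difference in gene expression was read in cells that had received DEX, and each difference was set beside the same difference in cells that had not.

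RNA had been sequenced from bone marrow-derived mast cells (BMMCs) of C57BL/6 PEP+/+ and PEP-/- mice, labelled as male and cultured for 4 weeks with SCF and IL-3. The 8 DEX-treated libraries among the 16 of the series were chosen by their treatment labels, with 4 of each genotype. Cells of the IgE DEX group had IgE (0.05 µg/ml by the labels, while the methods of the study state a higher dose, 3 h) and DEX (100 nM, 8 h). Cells of the IgE DNP DEX group had in addition the antigen DNP (200 ng/ml, 1 h). Each genotype had 2 libraries per treatment, one from a set titled with numbers and one from a set titled with letters. The other 8 libraries had the same genotypes with IgE alone or IgE DNP, and no DEX. All groups compared therefore carried IgE. The number of mice or cultures behind the libraries is not given in the sources used here, so the p-values measure the spread between these libraries, which may be in part technical. The 8 DEX libraries held 8612531 to 22143526 reads on genes, and 12891 genes had enough counts to be tested.

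The libraries of the 2 sets differed in sex-linked RNA. All 8 lettered libraries, of both genotypes and every treatment, held 8142 to 30035 reads of Xist, the X-inactivation RNA of female cells, and together 2 to 8 reads of the 4 Y-linked genes Ddx3y, Eif2s3y, Kdm5d and Uty. The 8 numbered libraries held 0 to 1 Xist read and 1743 to 4316 reads of the Y-linked genes. The lettered set thus went against the label male. Each set held both genotypes in each treatment, and set was a term of the fits reported here unless stated otherwise. With DEX, the share of reads that HTSeq assigned to no gene was 8.35% to 10.98% in the lettered set and 4.69% to 5.67% in the numbered set. Sex, culture and library preparation cannot be told apart between the sets. Both sets are therefore given side by side below. With DEX, the summed level of 7 mast cell markers was 57200 to 84560 CPM in PEP+/+ and 59060 to 77590 CPM in PEP-/- libraries. CPM are counts scaled to a common library size. Most of the sum was Cpa3, with a mean of 46950 CPM over the 8 DEX libraries. Of the 7 markers, 0 differed between genotypes at an adjusted p under 0.05 in edgeR. Tpsb2 (log2 fold change -0.39) and Kit (0.38) were the farthest from 0.

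Ptpn22 (ENSMUSG00000027843, GRCm38 chromosome 3, 103859795 to 103912247, plus strand) was the gene with the largest genotype difference. In PEP+/+ BMMCs its level was 66.5 CPM in the numbered and 71.6 CPM in the lettered library after IgE DEX, and 160 and 175 CPM with antigen added (IgE DNP DEX). Cells from PEP-/- mice had 0.363 and 0 CPM after IgE DEX and 0.547 and 1.24 CPM after IgE DNP DEX, from 0 to 13 reads per library. The groups did not overlap, and the log2 fold change of PEP-/- over PEP+/+ was -7.77 (SE 0.27, adjusted p = 6.84e-07, edgeR).

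Across all expressed genes, 188 of 12891 (1.46%) differed between genotypes with DEX at a Benjamini-Hochberg adjusted p under 0.05 in edgeR's quasi-likelihood test. Of these, 68 (0.527% of the genes tested) were higher and 120 (0.931%) lower in PEP-/- cells. The called changes had a median size of 0.776 on the log2 scale and 57 of them exceeded 1. For 187 of the 188, the sign was shared by 4 of 4 comparisons of PEP-/- with PEP+/+ within a treatment and set, which is shown by 25.9% of all tested genes. The same libraries chose the 188 genes, so this sharing follows in part from the choice and is no independent evidence. The median log2 fold change of all tested genes was 0.01. In the numbered set alone 415 genes were called, 94 of them among the 188, and in the lettered set alone 564 were called, 156 of them among the 188. A fit of 1 set has 4 libraries and a single residual degree of freedom.

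The count depended on single libraries. Leaving out any 1 of PEP+/+ IgE DEX replicate 1 or 2, PEP-/- IgE DEX replicate 1 or 2, or PEP-/- IgE DNP DEX replicate 1 left 7, 9, 6, 8 or 8 called genes. Without PEP-/- IgE DNP DEX replicate 2 there were 27. That library stood apart in that its 10 most abundant genes took 22.8% of the reads, against 12.4% to 17.51% in the other DEX libraries, and its part in the differences was not tested beyond this. The PEP+/+ IgE DNP DEX libraries stood apart as well. The deviations of its libraries from their mean correlated, across genes and matched by set, with those of the other 7 conditions with r from 0.465 to 0.568, against 0.679 to 0.816 among the other conditions. Its replicate 1 had the lowest depth of the DEX libraries (8612531 reads) and 7.85% of reads on ribosomal protein genes, against 5.4% to 6.42%. Without PEP+/+ IgE DNP DEX replicate 1 or 2 there were 800 and 146. Of 41 called genes that are named here, 6 stayed called whichever library was left out, namely Ptpn22, Gm3608, Slc28a2, Rassf4, Erv3 and Srm, while all 41 kept their direction. Without the set term, 2 genes were called, Ptpn22 and Slc28a2.

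**Figure D1:**
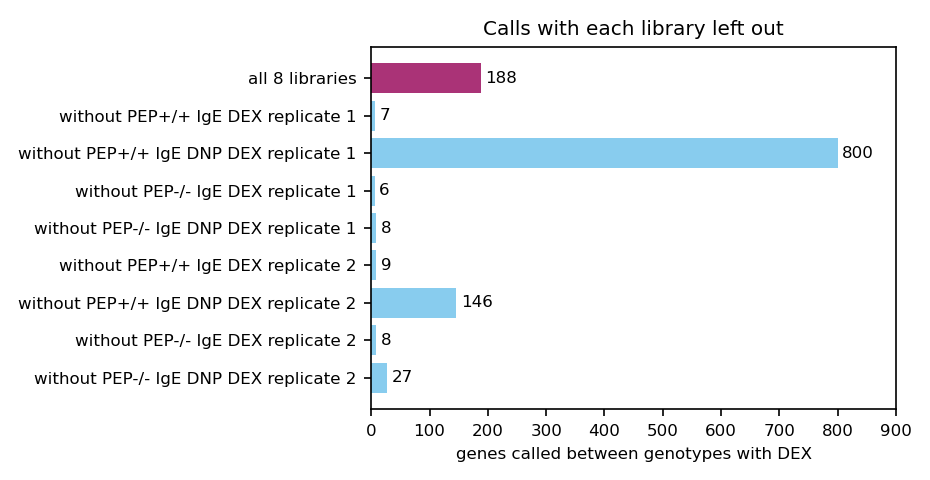
Number of genes called between PEP-/- and PEP+/+ BMMCs with DEX when each of the 8 libraries was left out in turn (replicate 1, numbered set, and replicate 2, lettered set), beside the fit with all 8. The bars run from 6 to 800 genes around the 188 of the full fit.

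Among the higher genes was Slc28a2 (ENSMUSG00000027219), a sodium-coupled transporter that takes up purine nucleosides. Its level was 8.40 and 8.49 CPM (numbered and lettered set) in PEP+/+ against 42.1 and 26.8 CPM in PEP-/- cells after IgE DEX. After IgE DNP DEX it was 13.4 and 12.4 against 50.0 and 36.6 CPM. All 4 PEP-/- libraries lay above all 4 PEP+/+ libraries (log2 fold change 1.85, SE 0.14, adjusted p = 0.000702). Without DEX its mean level was 0.017 CPM, too low to be tested, so a difference between genotypes could not be read there.

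Rassf4, a member of the Ras-association domain family, was at 7.88 and 1.64 CPM in PEP+/+ and 20.3 and 7.12 CPM in PEP-/- cells after IgE DEX, and at 3.52 and 0.875 against 11.3 and 3.14 CPM after IgE DNP DEX. The genotypes overlapped when the sets were pooled but not within a set (log2 fold change 1.68, SE 0.17, adjusted p = 0.00533). Without DEX its log2 fold change was 0.31 (adjusted p = 0.404). Gm3608, a predicted gene, had log2 fold changes of 1.93 with and 1.87 without DEX. Stab2, a scavenger receptor that binds hyaluronan, had 1.52 and 1.65, and the endogenous retroviral gene Erv3 had 1.25 and 1.17, all called in both fits.

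Further genes that were higher in PEP-/- than in PEP+/+ cells, both with DEX, were Olfr224, an olfactory receptor (1.48), Acp5, the tartrate-resistant acid phosphatase (1.47), Ifi27l2a, an interferon-inducible gene (1.42), and Siglecf, a sialic acid-binding lectin (1.45). Slc46a3, a lysosomal transporter, differed by 1.54, and its PEP+/+ and PEP-/- levels overlapped across the sets, at 0.312 to 0.912 and 0.476 to 3.58 CPM. Gm15880 differed by 1.26. Cx3cr1, the fractalkine receptor, was among the more abundant higher genes. Its level was 468 and 355 CPM in PEP+/+ and 836 and 647 CPM in PEP-/- cells after IgE DEX, and 316 and 279 against 577 and 432 CPM after IgE DNP DEX. The difference (0.79, SE 0.10, adjusted p = 0.0133) was called without DEX as well (0.75). Cx3cr1, and the other genes named outside the rule given in the methods, were chosen after their values were seen.

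Among the lower genes, Srm, which encodes spermidine synthase of polyamine synthesis, was at 42.6 and 45.8 CPM in PEP+/+ and 13.5 and 17.3 CPM in PEP-/- cells after IgE DEX. After IgE DNP DEX it was at 28.4 and 40.7 against 13.4 and 17.8 CPM. The 4 PEP-/- values lay below the 4 PEP+/+ values (log2 fold change -1.36, SE 0.13, adjusted p = 0.00311), and the difference was -1.55 without DEX. Odc1, the rate-limiting enzyme of the same pathway, was also lower (-0.68 with and -0.84 without DEX).

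Serpina3g, a serine protease inhibitor, was the most abundant of the lower genes with a large change. Its level was 1473 and 1025 CPM in PEP+/+ against 415 and 302 CPM in PEP-/- cells after IgE DEX, and 2326 and 3573 against 1111 and 1708 CPM after IgE DNP DEX (log2 fold change -1.44, SE 0.24, adjusted p = 0.0344). The genotypes separated within each treatment but overlapped across treatments. Its neighbour in the family, Serpina3f, differed by -1.31. Genes of this cluster are near-identical copies, so reads that fit several of them may have been left out. Pim2, a survival kinase, was at 47.3 and 33.0 against 14.6 and 13.3 CPM after IgE DEX and 18.1 and 24.7 against 7.98 and 10.8 CPM after IgE DNP DEX (-1.38, SE 0.18, adjusted p = 0.0171).

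Eepd1, an endonuclease/exonuclease/phosphatase family member (-1.91), Akr1c18, an aldo-keto reductase (-1.74), Car12, a carbonic anhydrase (-1.66), the gene ENSMUSG00000094126 (-1.56) and Eps8, an actin regulator and receptor kinase substrate (-1.43), completed the larger falls among genes with a mean of at least 1 CPM. Akr1c18 differed far more between the sets than between genotypes, at 9.77 and 17.2 CPM in the numbered and 0.421 and 0.687 CPM in the lettered PEP+/+ libraries. The beta-globin gene Hbb-bt was lower (-1.56), at 2.94 to 4.17 CPM in PEP+/+ and 0.915 to 1.43 CPM in PEP-/- libraries. Of 7 erythroid markers 3 were tested, and Hbb-bt was the 1 called. The alpha-globin gene Hba-a1 was lower in 4 of 4 comparisons (-1.25, adjusted p = 0.0749, edgeR), and Epor had 0.25. The summed level of the 7 erythroid markers was 12.4 to 21.6 CPM in PEP+/+ and 7.36 to 18.8 CPM in PEP-/- libraries. Of 5 eosinophil markers Siglecf was the 1 tested and was called, while Epx, Ear1 and Ear2 had no read in any DEX library. Of 10 macrophage and monocyte markers 6 were tested with DEX and 0 called. These were Cd68 (0.72), Lyz2 (0.68), Ccr2 (0.46), Cd14 (0.17), Adgre1 (-0.06) and Ly6c2 (-0.15). Cd68, Lyz2 and Ccr2 were called higher without DEX (0.70, 0.82 and 1.08). With DEX the 10 markers summed to 29.4 to 41.8 CPM in PEP+/+ and 34.3 to 61.5 CPM in PEP-/- libraries. Of 7 stromal and endothelial markers 2 were tested. Pdgfrb, a growth factor receptor, was called higher (1.14, and 1.43 without DEX), while Col1a2 and Cdh5 had no read. Pecam1, the other tested marker, was not called (0.19, adjusted p = 0.428, edgeR). Its mean with DEX was 269 CPM, against 2.45 CPM for Pdgfrb. The part of other cells in these differences was not tested, and in bulk RNA fewer cells of a type and less RNA per cell cannot be told apart.

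**Figure D2:**
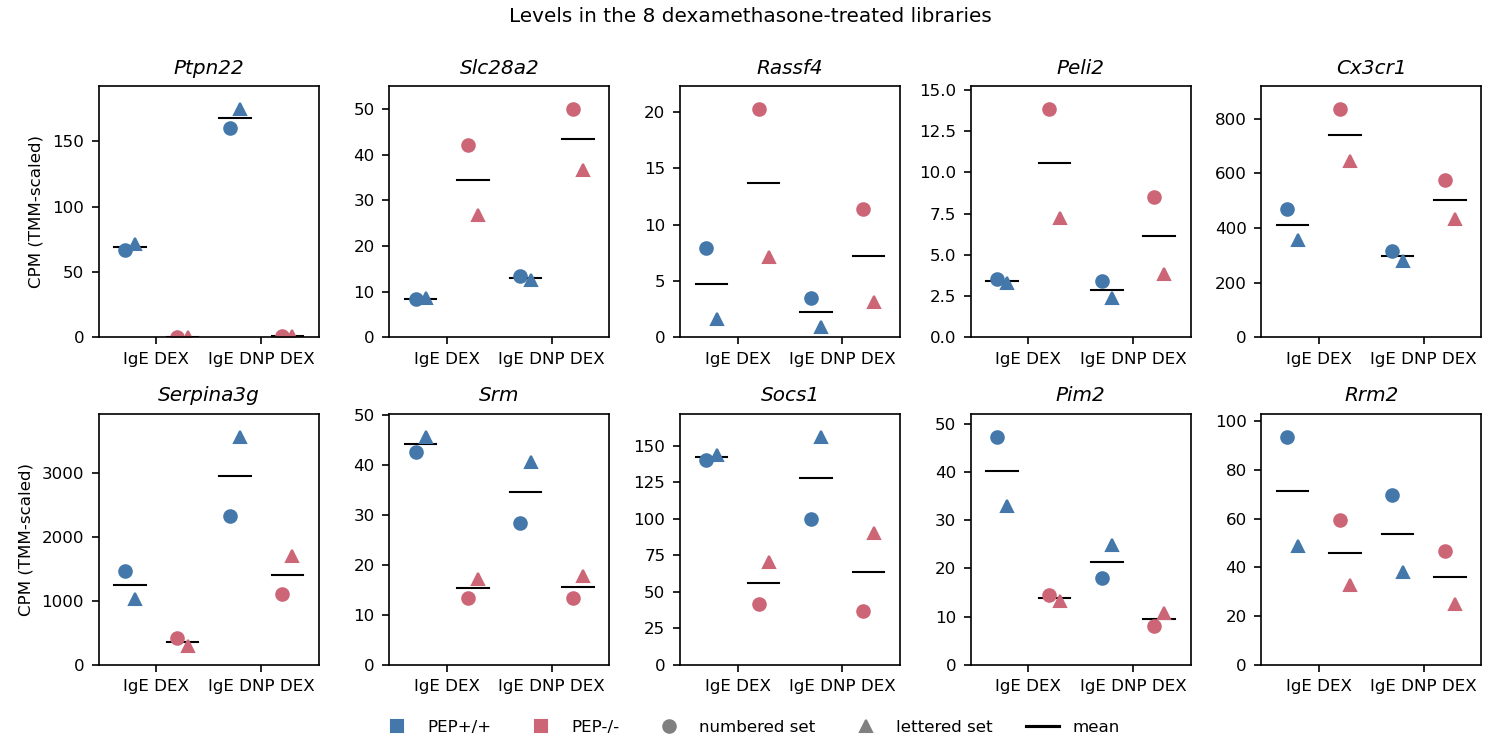
Levels (CPM, TMM-scaled, linear axes from 0) of 10 genes in each DEX-treated library by treatment and genotype, with circles for the numbered set, triangles for the lettered set and black lines for means of 2 libraries. Within each treatment and set, Slc28a2, Rassf4, Peli2 and Cx3cr1 lay higher and the other 6 genes lower in PEP-/- cells.

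The gene list counts below are from edgeR unless another fit is named. The edgeR counts stand against 0.527% higher and 0.931% lower among all genes with DEX, and 10.2% higher and 11.6% lower without it. An unadjusted p under 0.05 in edgeR was found for 2122 of 12891 genes (16.46%) with DEX. DESeq2 called 194 higher and 274 lower of 12891 genes with DEX, and all 16 samples in 1 fit 187 and 238 of 13305. The numbered set alone gave 225 and 190 of 12559, and the lettered set alone 284 and 280 of 13316. List counts from these fits stand against those larger numbers. Higher and lower refer to PEP-/- against PEP+/+ cells of the same treatment. Of 30 cell cycle genes, 8 were lower with DEX and 0 higher (DESeq2, 10 and 0), namely Ccne1 (cyclin E1, -1.12), Cdc6 (licensing of replication origins, -0.97), Tk1 (thymidine kinase, -0.71), Mcm2 and Mcm5 (subunits of the replicative helicase, -0.70 and -0.55), Uhrf1 (-0.62), Rrm2 (a ribonucleotide reductase subunit, -0.61) and Tyms (thymidylate synthase, -0.55). The called members act in the G1/S transition, in DNA replication and its nucleotide supply, and in the upkeep of DNA methylation. Mitotic members were not called, with Ccnb1 at 0.16, Plk1 at 0.11 and Aurka at 0.15. The median of the list was -0.26 with and -0.55 without DEX, where 19 of 30 were called lower. In the numbered set alone 3 members were called lower and in the lettered set alone 7, and without 1 library 0 to 11.

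Rrm2 was at 93.7 and 48.7 CPM in PEP+/+ and 59.6 and 32.6 CPM in PEP-/- cells after IgE DEX, and at 69.7 and 38 against 46.9 and 24.9 CPM after IgE DNP DEX. Its level was higher in the numbered set throughout, and PEP-/- was lower in each set (-0.61, SE 0.09, adjusted p = 0.0264).

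A list of 66 ribosome assembly and nucleolar genes was drawn up after such genes had been seen among the called ones, so its counts describe the data and give no independent evidence. Of these, 11 were lower with DEX, with Grwd1 (-1.10), Nop16 (-0.86), Bysl (-0.75) and Nop56 (-0.69) the farthest from 0, and 62 of 66 had a negative log2 fold change (median -0.33). The numbered set alone had 6 called lower, the lettered set alone 24 and DESeq2 22, and leaving out 1 library gave 0 to 34. Without DEX 62 were called lower and the median was -0.68. In 64 of 66 the difference was smaller in size with DEX. None of these changes of the genotype effect by DEX was called. The smallest p was that of Pa2g4, a growth-associated nucleolar protein (-0.26 with and -0.90 without DEX, unadjusted p = 7.7e-05, adjusted p = 0.341 in edgeR).

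Of 24 tested genes of serine, one-carbon and transsulfuration metabolism and the amino acid stress response, 4 were lower and 0 higher with DEX in edgeR, and 8 had an unadjusted p under 0.05. DESeq2 called 4 lower and 1 higher, the numbered set alone 1 and 2, the lettered set alone 5 and 0, and leaving out 1 library gave 0 to 6 lower. Mthfd2 and Mthfd1, folate-cycle enzymes of mitochondrion and cytosol, differed by -0.67 each, and Asns, asparagine synthetase, by -0.85. Cth, the cystathionine gamma-lyase that makes cysteine, had 0.260 to 1.72 CPM in PEP+/+ and 0.0782 to 0.207 CPM in PEP-/- libraries. Phgdh (-0.60), Shmt1 (-0.44), Shmt2 (-0.34) and Psat1 (-0.11) were not called with DEX and were called lower without it (-1.39, -1.33, -0.90 and -0.73). Of 25 genes tested without DEX, 13 were lower and 1 higher, and medians of -0.19 with and -0.45 without DEX.

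Of 25 tested genes of cholesterol synthesis and uptake, 22 had a negative log2 fold change with DEX (median -0.21), and 2 were called. Idi1, isopentenyl diphosphate isomerase, was at 212 and 67.1 against 108 and 45.3 CPM after IgE DEX and at 354 and 147 against 274 and 102 CPM after IgE DNP DEX (-0.63, SE 0.12, adjusted p = 0.0386). Fdps, farnesyl diphosphate synthase, differed by -0.49. Without DEX neither was called (-0.11 and -0.02), the median of the list was 0.09 and 3 of 25 genes, Hmgcs1 and Lss among them, were called higher, a share near the 10.2% of all genes. With DEX Hmgcs1 and the regulator Srebf2 had values near 0 (-0.006 and 0.004). The numbered set alone had 0 called members, the lettered set alone 5 lower and DESeq2 6 lower, and leaving out 1 library gave 0 to 8 lower.

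Of 34 tested immediate early and feedback genes, Socs1 and Socs3, inhibitors of cytokine receptor signalling, were lower with DEX in edgeR. DESeq2 called 5 lower and 2 higher, the numbered set alone 5 and 3, the lettered set alone 6 and 2, and leaving out 1 library gave 0 to 8 lower and 0 to 2 higher. Socs1 was at 140 and 144 CPM in PEP+/+ and 41.6 and 70.5 CPM in PEP-/- cells after IgE DEX, and at 100 and 156 against 37.0 and 90.3 CPM after IgE DNP DEX. All PEP-/- values lay below all PEP+/+ values (-1.26, SE 0.18, adjusted p = 0.0234). Socs3 differed by -1.33 (SE 0.23, adjusted p = 0.0372). Both were also called lower without DEX, by 0.62 and 0.75. Ier3 and Tnfaip3, the more abundant of the uncalled members, were at -0.20 and 0.28. Other members of the list were not called and stood on both sides of 0, such as Myc (-0.90), Cish (-0.80), Fos (0.81) and Dusp2 (0.91).

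In the glucocorticoid response list, 1 of 20 genes was called higher by edgeR and 2 by DESeq2. The numbered set alone had 1 higher, the lettered set alone 3 higher and 1 lower, and leaving out 1 library gave 0 to 3 higher. The called gene, Dusp1, stayed called in 2 of these 8 fits. Dusp1, a phosphatase of MAP kinases, was at 18.2 and 19.9 CPM in PEP+/+ and 46.1 and 30.4 CPM in PEP-/- cells after IgE DEX, and at 43.4 and 50.2 against 70.7 and 71.8 CPM after IgE DNP DEX (0.79, SE 0.15, adjusted p = 0.0411). Without DEX the difference was 0.12 and uncalled. The abundant DEX-responsive genes Glul (0.30), Fkbp5 (-0.04) and Tsc22d3 (0.18) and the receptor gene Nr3c1 (0.46) were not called with DEX. The median of the list was 0.21, and 5 of 19 genes were called higher without DEX.

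Of 13 Toll-like receptor and Pellino genes, Peli2 and Tlr7 were higher and Tlr2 lower with DEX. Each set alone and DESeq2 also gave 2 higher and 1 lower, but leaving out 1 library gave 0 to 2 higher and 0 to 1 lower. Peli2, Tlr7 and Tlr2 stayed called in 3, 2 and 3 of these 8 fits. Peli2, a ubiquitin ligase of Toll-like receptor signalling, was at 3.52 and 3.28 against 13.8 and 7.22 CPM after IgE DEX and 3.38 and 2.37 against 8.52 and 3.81 CPM after IgE DNP DEX (1.32, SE 0.21, adjusted p = 0.0297, and 1.87 without DEX). Tlr7, the X-linked endosomal receptor of single-stranded RNA, was at 18.7 and 8.79 against 33.4 and 13.5 CPM after IgE DEX and 15.2 and 7.18 against 29.9 and 11.7 CPM after IgE DNP DEX (0.78, SE 0.12, adjusted p = 0.0264). Tlr2, the receptor of bacterial lipoproteins, was at 5.80 and 1.68 against 1.30 and 0.610 CPM after IgE DEX and 4.56 and 1.37 against 1.25 and 0.856 CPM after IgE DNP DEX (-1.73, SE 0.27, adjusted p = 0.0285), and had -0.29 without DEX. The adaptors Irak1 (0.04) and Myd88 (-0.13) were not called.

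Of 29 tested interferon-stimulated genes, Ifi27l2a was the 1 gene called by edgeR with DEX, and 12 had an unadjusted p under 0.05. DESeq2 called 2 higher, all 16 samples in 1 fit 4, the numbered set alone 2 and the lettered set alone 3. With 1 library left out there were 0 to 3 higher. Without DEX 14 of 30 were called higher and 1 lower. Irf7 (1.02), Rsad2 (0.75) and Oasl2 (0.74) were not called with DEX. Their values without DEX were 1.64, 0.77 and 1.48. The abundant members Ly6e (-0.10) and Ly6a (-0.02) stood near 0. Of 12 tested genes of prostaglandin and leukotriene synthesis, Ptgds, a prostaglandin D synthase, was called higher by edgeR, and DESeq2 called 2. The numbered set alone had 1 higher and 1 lower, the lettered set alone 3 higher, and leaving out 1 library gave 0 to 3 higher. Ptgds was at 4.89 and 5.30 against 12.8 and 14.5 CPM after IgE DEX and at 8.07 and 4.93 against 9.70 and 14.3 CPM after IgE DNP DEX (1.17, SE 0.21, adjusted p = 0.0372). Without DEX the mean of Ptgds was 0.028 CPM, too low to be tested. Ptgs2, the inducible cyclooxygenase, had 1.47 (SE 0.32, adjusted p = 0.0609) and was not called. Without DEX Ptgs2 had -0.27 (adjusted p = 0.375). Its genotype by DEX interaction was 1.745 (unadjusted p = 0.00183, adjusted p = 0.554, edgeR) and not called. The study reported both genes as misregulated in PEP-/- cells, with qRT-PCR as further evidence. Alox5 (-0.20) and Alox5ap (-0.03) were not called.

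Of 23 cytokines and chemokines tested with DEX, edgeR called 0, and 5 had an unadjusted p under 0.05. DESeq2 called 1 lower, the numbered set alone 2 lower and the lettered set alone 3 lower and 1 higher. Leaving out PEP+/+ IgE DNP DEX replicate 1 gave 2 lower. Without DEX 12 of 27 were called lower (medians -0.22 with and -0.35 without DEX). Il13, a type 2 cytokine, was at 1.24 and 0.294 CPM in PEP+/+ and 0.467 and 0.407 CPM in PEP-/- cells after IgE DEX, and at 24.4 and 38.4 against 11.3 and 17.9 CPM after IgE DNP DEX. After IgE DNP DEX both PEP-/- libraries lay below both PEP+/+ libraries, and after IgE DEX the genotypes overlapped. Its log2 fold change was -1.03 with DEX (SE 0.31, adjusted p = 0.147) and -0.99 without (adjusted p = 0.000113). Tnf had -0.58 (SE 0.17, adjusted p = 0.147) with and -1.39 without DEX. Csf2 had a mean of 0.273 CPM with DEX, too low to be tested, and -1.39 without. Tnfsf14 (-0.07) and Tgfb1 (-0.22) were the abundant members.

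Genes of IgE receptor signalling (27 tested), PEP partners and related tyrosine phosphatases (15), granule proteases and mediators (18) and mast cell lineage factors and growth receptors (17) held 0 genes called by edgeR with DEX, and 8, 3, 6 and 7 genes with an unadjusted p under 0.05. Such a p was found for 16.46% of all genes tested with DEX. DESeq2 called 2 granule genes higher and 1 lower, and 0 of the other lists. The sets went opposite ways for the granule list, with 5 lower and a median of -0.37 in the numbered set alone, and 2 higher, 1 lower and a median of 0.25 in the lettered set alone. In the lettered set alone 1 IgE receptor and 2 lineage genes were also called higher. Leaving out PEP+/+ IgE DNP DEX replicate 1 gave 3 called genes each in the IgE receptor and granule lists and 1 in the lineage list. Fcer1a, the IgE-binding receptor chain, had -0.10 (SE 0.17), Rac2 0.15, Ptprc 0.27, Ptpn7 -0.02, Cpa3 0.04, Cma1 -0.09, Il1rl1 0.23 and Csf2rb2 0.04. Rplp0, a ribosomal protein gene, had -0.09 (SE 0.13, adjusted p = 0.769). Without DEX these 4 lists had 5, 2, 1 and 4 genes higher and 0, 0, 2 and 0 lower, of 26, 15, 18 and 17 tested. The 2 of 15 PEP partners and the 2 of 18 granule genes are near the shares of 10.2% and 11.6% among all genes.

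**Figure D3:**
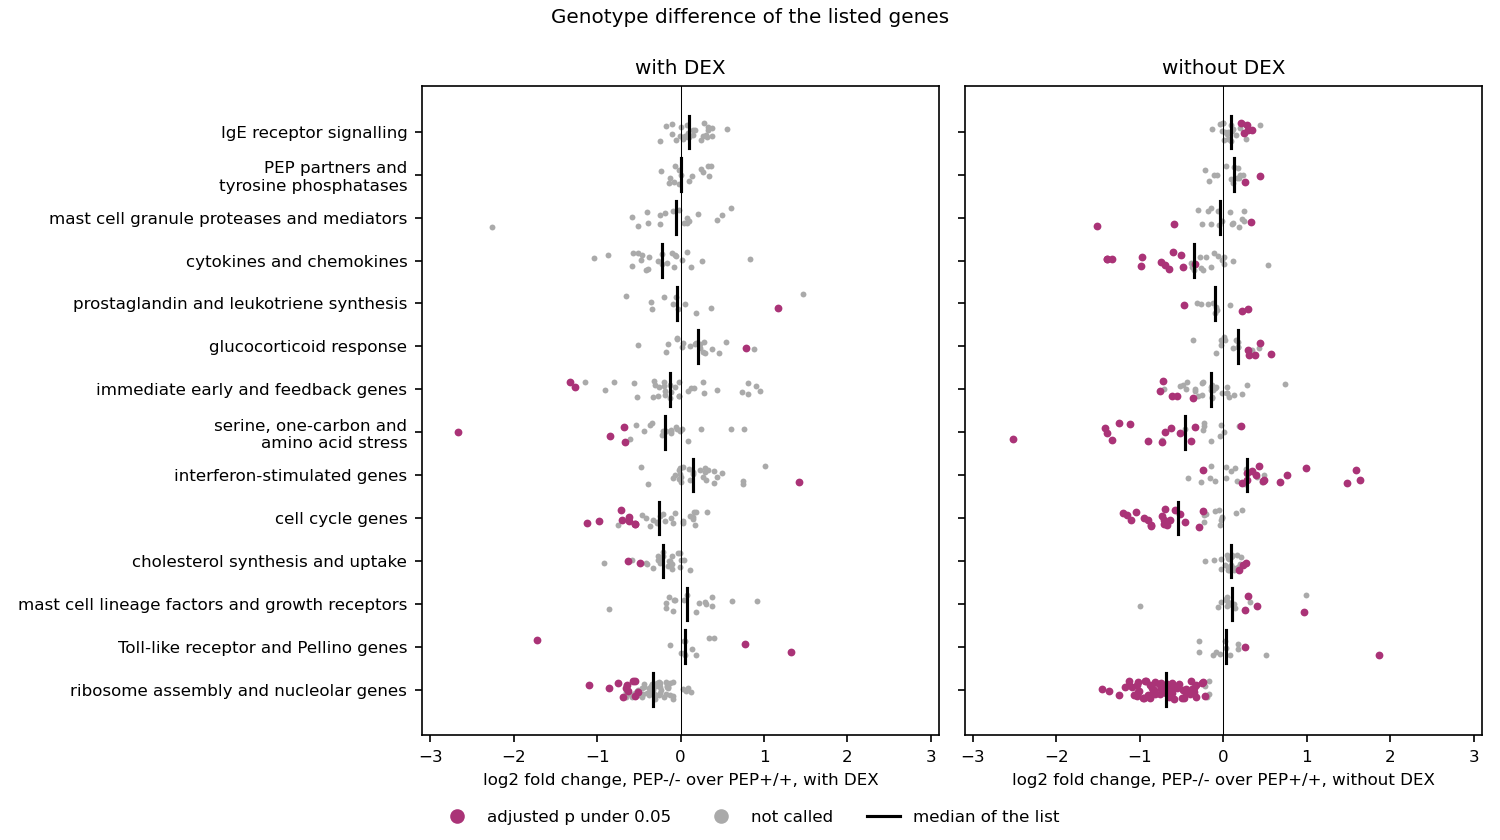
Log2 fold changes of PEP-/- over PEP+/+ for the tested members of 14 gene lists with DEX (left) and without DEX (right), drawn within -3 to 3, with called genes in purple and black lines at list medians. For cell cycle and ribosome assembly genes the medians were -0.26 and -0.33 with DEX against -0.55 and -0.68 without.

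Without DEX, the same model on the other 8 libraries called 2767 of 12709 genes (21.8%), with 1291 higher (10.2%) and 1476 lower (11.6%) in PEP-/- cells. The median SE was 0.148 with and 0.105 without DEX, so the fit with DEX was the less precise. The largest differences without DEX, Ptpn22 aside, were those of Tktl1, a transketolase-like gene (1.88, and 1.13 with DEX, not called), Peli2, Gm3608, Stab2 and Lgmn, the lysosomal protease legumain (1.65 and 1.12, not called), and, on the lower side, of the small nuclear RNA genes Gm25939 (-4.13), Gm24407 (-3.82), Gm24265 (-3.67) and Gm22513 (-3.59). The values of these 4 rest mostly on PEP+/+ IgE DNP replicate 1, with 7.00, 7.57, 19.5 and 75.1 CPM, against 0.675, 0.450, 1.69 and 3.6 CPM in replicate 2. With DEX Gm25939 and Gm24407 were not tested, and Gm24265 and Gm22513 had 1.85 and 1.70, not called. These rest on PEP-/- IgE DNP DEX replicate 2, at 27.8 and 70.5 CPM against at most 1.82 and 4.88 CPM in the other DEX libraries, and with 1 library left out they ranged from -0.07 to 2.55 and from 0.24 to 2.19. The fits share no library, but both use the same 2 sets. Across all 8 conditions, deviations matched by set correlated with r from 0.465 to 0.816. Whether libraries with and without DEX came from the same cultures is not given. Directions shared by the fits are therefore not independent replication. Of the 2767 genes, 2738 were tested with DEX, where 2596 (94.8%) had the same direction and 146 (5.3%) were called. Their median size was 0.43 without DEX and, signed by that direction, 0.28 with it. Genes chosen in 1 fit are larger there by selection, so this fall alone does not show a weaker difference with DEX. Conversely, of the 188 genes called with DEX, 177 were tested without it, 174 (98.3%) had the same direction and 146 (82.5%) were called. The median size of these 177 was 0.761 with DEX and, signed by that direction, 0.715 without it. Over all 12418 genes tested in both, 74.0% had the same direction and the log2 fold changes correlated with Pearson's r = 0.608 and Spearman's rho = 0.624 across genes, which are not independent replicates.

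The remaining 42 genes called with DEX fell into 3 kinds. 28 had the same direction without DEX and were not called there, 11 had counts too low to test there, and 3, Atp8b4 and Rps12-ps3 among them, had the opposite direction without being called. Atp8b4, a phospholipid flippase, was at 41.8 and 13.6 against 9.02 and 2.85 CPM after IgE DEX and 13.0 and 14.4 against 11.7 and 2.19 CPM after IgE DNP DEX (-1.82, SE 0.34, adjusted p = 0.0409), and had 0.32 without DEX. It had the smallest p of the genotype by DEX interaction (-2.14, unadjusted p = 6.9e-05, adjusted p = 0.341).

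**Figure D4:**
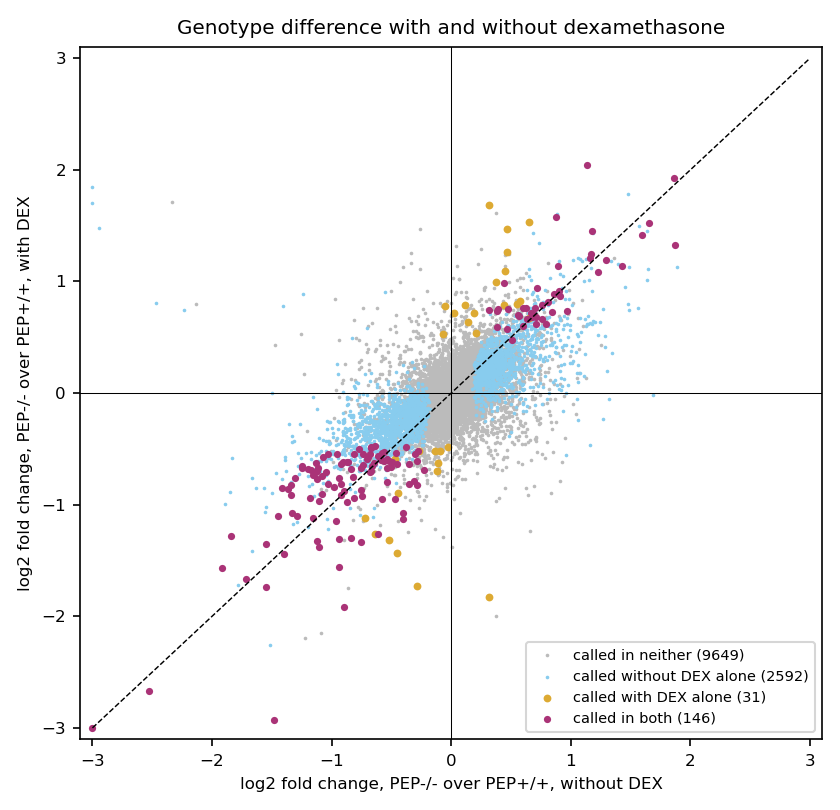
Log2 fold change of PEP-/- over PEP+/+ without DEX (horizontal) against that with DEX (vertical) for 12418 genes tested in both, drawn within -3 to 3, with the dashed line at equal values. The 146 genes called in both lie at the lower left and the upper right.

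A persisting or lost call is not itself a test of a change. In the interaction of genotype with DEX over all 16 libraries, 0 of 13305 genes were called by edgeR, 752 had an unadjusted p under 0.05 (5.65%), and DESeq2 called 6. Gm8355, a pseudogene, had the next smallest p after Atp8b4 (interaction 1.31), then Pa2g4. Leaving out PEP+/+ IgE DNP replicate 2 gave 19 called genes, and leaving out PEP+/+ IgE DNP DEX replicate 1 gave 1.

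The genotype difference was also fitted within each DEX treatment. After IgE DEX 5 genes were called (0.0388%), Ptpn22 (-8.13), Slc28a2 (1.98), Eepd1 (-2.41), ENSMUSG00000094126 (-1.91) and Srm (-1.55). After IgE DNP DEX Ptpn22 (-7.59) was called alone (0.00776%). Leaving out any 1 of 6 libraries, all but the PEP+/+ IgE DNP DEX ones, left 1 gene called after either treatment. The difference between both effects gave 0 called genes of 12891, 174 with an unadjusted p under 0.05, and 0 by DESeq2. Dusp6, Mycn and Phlda1 had the smallest p (interaction 1.64, 1.51 and 1.67). Without PEP+/+ IgE DNP DEX replicate 2 the counts were 304 after IgE DEX, 2101 after IgE DNP DEX and 214 for the difference, and without PEP+/+ IgE DNP DEX replicate 1 they were 355, 11 and 0.

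**Figure D5:**
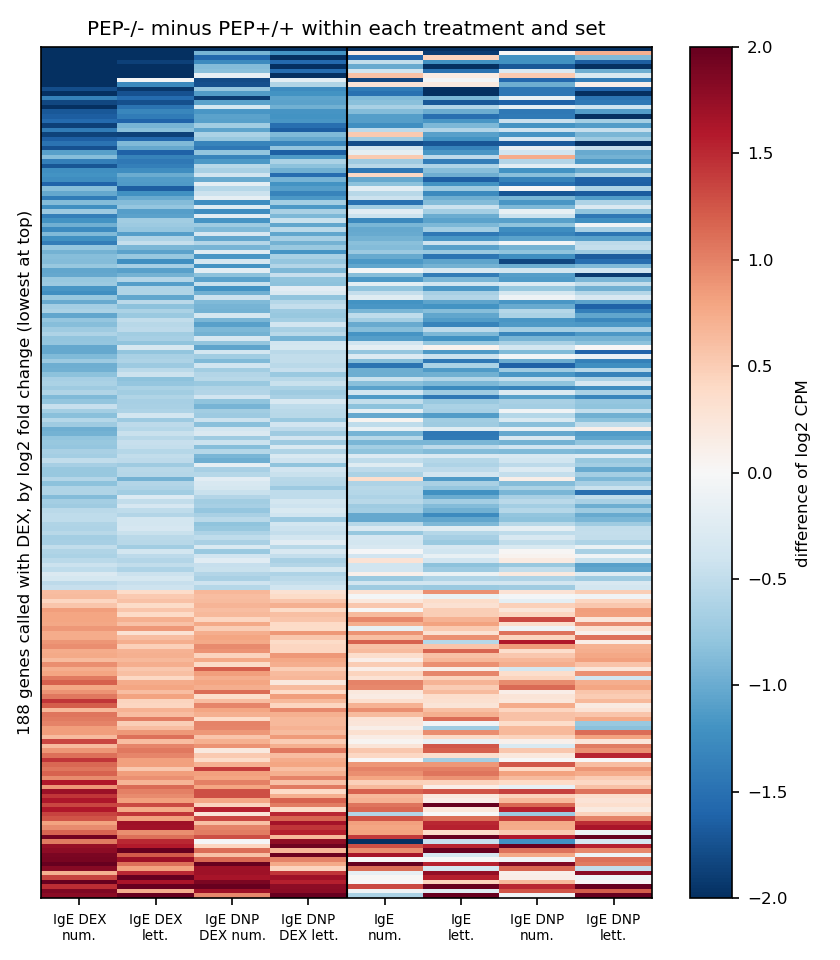
Difference of log2 CPM, PEP-/- minus PEP+/+, within each treatment and set (num., numbered, and lett., lettered) for the 188 genes called with DEX, ordered by fold change, with the colour scale ending at -2 and 2. In the 4 DEX columns on the left, from whose libraries the genes were chosen, 187 genes keep 1 direction, and 148 keep it in all 8 columns.

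Within 5 Mb of Ptpn22, 2 of 74 tested genes were called with DEX (2.70%), against 12 of 592 on the whole of chromosome 3 (2.03%), Ptpn22 left out of both. Among all tested genes the share was 1.46%, and a count of 2 is too small to tell these shares apart. Capza1, an actin-capping subunit (chromosome 3, 104822779 to 104864505), had -0.59 with and -0.60 without DEX.

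The 250 bases before the RefSeq gene starts (GRCm38.p6) were searched on both strands for ACANNNTGT, the spacing of a glucocorticoid receptor element, and for CACGTG, the E-box read by factors such as Myc, which do not overlap by sequence. Both motifs read the same on either strand. Sequences were found for 47 of the 68 higher and 102 of the 120 lower genes. ACANNNTGT was found before 4 higher (8.51%) and 5 lower genes (4.90%), against 4.43% of 9366 tested genes, and CACGTG before 2 (4.26%) and 11 (10.78%), against 9.93%. The windows of Dusp1, the called gene of the glucocorticoid list (chr17:26508473-26508722, minus strand), and of the first start of the targeted gene Ptpn22 (chr3:103859545-103859794, plus strand) are shown, with CACGTG in capitals. The Ptpn22 window shown held neither motif, while the window of another annotated Ptpn22 start held 1 ACANNNTGT, so Ptpn22 is counted among the 5 lower genes.
Dusp1: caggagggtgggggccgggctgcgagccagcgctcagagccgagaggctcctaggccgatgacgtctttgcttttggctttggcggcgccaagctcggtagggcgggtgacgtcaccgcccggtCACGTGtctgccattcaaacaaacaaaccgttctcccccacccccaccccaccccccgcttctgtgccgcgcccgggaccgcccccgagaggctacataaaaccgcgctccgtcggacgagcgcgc
Ptpn22: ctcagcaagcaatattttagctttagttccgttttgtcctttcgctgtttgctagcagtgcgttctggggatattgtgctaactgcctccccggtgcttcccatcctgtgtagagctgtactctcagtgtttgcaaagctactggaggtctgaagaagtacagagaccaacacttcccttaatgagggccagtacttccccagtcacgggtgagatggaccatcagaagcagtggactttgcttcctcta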

How the data were processed

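Per the labels and the study's methods, the authors sequenced paired-end reads of 50 bases from a stranded mRNA library kit, aligned them to GRCm38 with TopHat2 and counted reads per Ensembl gene with HTSeq. The deposited values are raw counts per gene, 1 library per sample. The strand setting of the counting is not given in the sources used here, so overlapping antisense genes cannot be told apart. Rows that name no gene were kept out of library sizes and tests.

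Counts were filtered (filterByExpr, minimum count 10), scaled by TMM and tested with edgeR 4.0.16 (quasi-likelihood, R 4.3.3), with treatment and replicate set as terms. Adjusted p-values (Benjamini-Hochberg) under 0.05 over all tested genes were called. CPM are TMM-scaled, and differences within a pair used a prior count of 2. Symbols and positions came from a GRCm38 annotation that matched 96.21% of gene IDs. The scripts were tested on simulated data.

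Set numbers and letters were used as pairs because deviations from the group means correlated within a set, with r from 0.465 to 0.816 in each pair of conditions. The labels do not say what a set shares. No replicate pair agreed within counting noise.

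Named genes were Ptpn22 and genes the study names, the 12 largest changes in each direction with DEX and 5 in each direction without it (called, same direction in 4 of 4 paired differences, mean of at least 1 CPM), the 3 smallest p of each interaction, up to 4 called members of each list or otherwise 2 by abundance, and called neighbours of Ptpn22. A few genes that meet these rules are not reported here. The comparison, lists and rules were chosen with earlier results of these data known. Alternatives were other scalings and filters, DESeq2 1.42.0, no set term, 4 pairs as blocks, all 16 samples, each set alone, and each library left out. Reading the gene lists under these alternatives was added after seeing the data.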

Additional observations from a re-analysis of the deposited data

How the results depend on the processing

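The number of genes called between genotypes with DEX (188) stayed within 1.5 times under other size factors, both count filters and the legacy quasi-likelihood fit. DESeq2 called 468 with DEX, including all 188, 86 within IgE DEX, 14 within IgE DNP DEX and 6 for the genotype by DEX interaction, and 436 of its calls with DEX had the same direction without it. Without the replicate block, 2 genes were called with DEX and 3 without it, 1 was called within IgE DEX, and the shared directions numbered 3 of the genes called without DEX and 1 of those called with it. With 4 pairs as replicate block, 39 were called with DEX, 34 of them in the same direction without it. With all 16 samples in the fit, 425 were called with DEX, 1196 without, 83 within IgE DEX and 3 within IgE DNP DEX, and the shared directions numbered 1163 and 410. In the numbered and lettered set alone, 415 and 564 were called with DEX, 363 and 477 of them in the same direction without it. Within IgE DEX and IgE DNP DEX, 8 and 2 genes were called with no filter and 0 and 0 with at least 10 counts in every sample, a filter that Ptpn22 does not pass. In the 2 Mb window around Ptpn22 the count was 1. The cause of these changes was not tested.

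Leaving out 1 library gave 6 to 800 genes with DEX, 1629 to 2503 without, 1 to 355 within IgE DEX, 1 to 2101 within IgE DNP DEX, 0 to 214 for the genotype by DNP and 0 to 19 for the genotype by DEX interaction. Of the genes called without DEX, 1555 to 2602 had the same direction with DEX, and of those called with DEX, 5 to 721 had the same direction without. Where an arm was left with 1 library, that library was assumed to vary like the others.

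Of the named genes, 15 turned direction under some alternative and 0 of them were called with DEX. With 1 library left out their log2 fold changes were Ptpn7 -0.048 to 0.005, Fkbp5 -0.082 to 0.002, Hmgcs1 -0.116 to 0.102, Tnfsf14 -0.322 to 0.103, Rplp0 -0.162 to 0.030, Fcer1a -0.227 to 0.042, Cma1 -0.297 to 0.154, Alox5ap -0.100 to 0.104, Ly6a -0.063 to 0.057, Srebf2 -0.085 to 0.111, Csf2rb2 -0.142 to 0.191, Irak1 -0.073 to 0.131 and Gm24265 -0.067 to 2.549. Hmgcs1 was at 0.002 with other size factors, 0.001 with at least 10 counts in every sample, 0.003 with DESeq2, 0.006 without the block, 0.003 with all 16 samples, 0.001 with 4 pairs and 0.025 in the numbered set. Cma1 was at 0.047 without the block. The numbered set alone gave -0.849 for Gm24265, -0.289 for Gm22513 and 0.056 for Ly6e. The lettered set alone gave 0.089 for Rplp0, 0.108 for Fcer1a, 0.571 for Cma1, 0.019 for Tnfsf14, 0.093 for Alox5ap, 0.036 for Ly6a, -0.066 for Srebf2, -0.148 for Csf2rb2 and -0.086 for Irak1. With a median SE of 0.148 and 4 residual degrees of freedom with DEX, small differences were not detectable at this depth and number of libraries.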

Other observations

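Among the genes called lower in PEP-/- cells with DEX were several of protein folding and entry into the endoplasmic reticulum, picked out after their values were seen and therefore given with no test as a group. Sdf2l1, a chaperone partner, differed by -0.94 with and -0.47 without DEX (log2 fold change). Pdia6, a disulfide isomerase, differed by -0.66 and -0.50, Manf, a secreted stress-induced protein, by -0.64 and -0.35, and Creld2, another stress-induced protein, by -0.61 and -0.56. Srprb, a subunit of the signal recognition particle receptor, differed by -0.60 and -0.54. Cad, an enzyme of pyrimidine synthesis, differed by -1.10 and -1.29.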
